A study of Mus musculus with 8 samples.

Results

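Aminoacyl-tRNA synthetases were followed through total RNA and AGO2-bound RNA of mouse glomerular mesangial cells (MMC). The 36 genes were chosen by symbol, as the cytosolic and mitochondrial synthetases listed among the 24639 gene entries. They comprised 20 genes of the cytosolic set, of which Gars and Kars also give rise to mitochondrial enzymes, and 16 genes of the mitochondrial set, including Lars2, the mitochondrial leucyl-tRNA synthetase. All 36 genes had at least 1 count in every library.

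Each synthetase joins 1 amino acid to its tRNAs, and the charged tRNAs are then used by ribosomes. Cytosolic and mitochondrial ribosomes draw on separate enzymes, all encoded in the nucleus, and several cytosolic synthetases sit together in a multi-synthetase complex held by scaffold proteins. The genes of many cytosolic synthetases are known targets of ATF4, the transcription factor of the amino acid response, whereas AGO2 is the Argonaute protein that holds microRNAs and the RNAs they pair with.

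Primary MMC came from C57BL/6J mice, either wild type (WT) or homozygous for a short CRISPR-Cas9 nickase deletion that removes miR-379 (miR-379KO), and were grown untreated. Glomeruli were pooled for the preparation of MMC. Total RNA and the RNA pulled down on beads with an antibody to AGO2 (AGO2-IP) were sequenced for each genotype, with replicates A and B in each of the 4 groups. The comparisons asked whether loss of miR-379 changes RNA levels or AGO2 association.

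Total RNA libraries held 17168230 to 22660743 gene counts and AGO2-IP libraries 5587611 to 17095021. Rn45s, the 45S precursor of ribosomal RNA, took 4.52 to 9.26% of gene counts in total RNA and 72.2 to 80.5% in AGO2-IP, so that the 35 synthetases other than Lars2 shared 57556 to 88811 counts in each total RNA library but 2688 to 5029 in each AGO2-IP library. The Mir379 entry held 4 counts in WT AGO2-IP B, 1 count in miR-379KO AGO2-IP A and 0 in the other 6 libraries, which is too few to check the genotypes. In total RNA, 5 of 6 mesangial markers were over 1 CPM on average, with a sum of 2909 to 4620 CPM in WT that lay below the 4815 to 5067 CPM of miR-379KO, and the part of this difference in the results was not tested. Of other cell types, the 5 endothelial markers summed to at most 0.954 CPM and the 5 leukocyte markers to at most 0.702 CPM. Podocyte markers were the highest of the lists of other cell types, with 3 of 5 over 1 CPM and sums of 110 to 250 CPM in WT and 144 to 261 CPM in miR-379KO, and their part in the results was not tested. The 5 tubular markers summed to 1.04 to 21.6 CPM with Umod at 0, in ranges that overlapped between genotypes. In such bulk samples, fewer cells of a type and less RNA per cell cannot be told apart.

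The sequence of the microRNA removed in miR-379KO MMC is shown with its seed (bases 2 to 8 from the 5′ end) in capitals, as given by RefSeq in GRCm38.p6 at chr12:109709065-109709085 on the plus strand.
miR-379-5p: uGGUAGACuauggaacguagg
The 7 bases that pair with this seed, GTCTACC, were present in the 3′-UTR of 0 of the 36 synthetases, compared to 776 (4.06%) of 19135 gene entries with a 3′-UTR.

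Lars2 lies on chromosome 9 (chr9:123366927-123462675, plus strand, GRCm38.p6), with 22 exons in the union of its transcripts and 4438 bases of exon. Its last exon, exon 22, of 1177 bases, holds a stretch that aligned in part to the mitochondrial 16S ribosomal RNA gene mt-Rnr2. Bases 452 to 644 of the exon (chr9:123461950-123462142) aligned on the same strand to bases 2362 to 2555 of the mitochondrial genome, with 114 of 194 aligned positions identical (58.8%). Across all exons of the 36 synthetases this was the 1 alignment to either mitochondrial ribosomal RNA found at an E-value limit of 0.001. The most alike parts of the stretch are shown as 3 windows of 28 bases of mt-Rnr2, in which capitals mark the bases that Lars2 shares. They start at bases 2362, 2467 and 2500 of the mitochondrial genome, and each shares 19 of its 28 bases.
mt-Rnr2 window 1: AAGTTACCctAGGGATAACaGcgcaaTc
mt-Rnr2 window 2: AttAAtgGTTcGtTTGTTCAaCgAtTAA
mt-Rnr2 window 3: tACGTGAtCTGaGtTcAGACCGgaGcaA
Elsewhere in the genome, scaffolds included, 15 sequences matched at least 50 bases of this stretch of the Lars2 exon. Of these, 10 lay in alignments of 90% identity or more, and 187 bases were the most that 1 alignment covered. No curated gene carried such a copy in an exon. The files give 1 count for each gene, so where along Lars2 its reads lay is not known here, and the part of this stretch in the counts was not tested. No Lars2 exon aligned to the ribosomal RNA locus of chromosome 17, the nearest reference for Rn45s used here. Short stretches of Aars2 (26 bases) and Vars (32 bases) did align to it. A 420-base fragment of 28S ribosomal RNA was also searched, and no exon of the 36 synthetases aligned to that fragment. The chromosome 17 locus spans 5815 bases, and neither Rn45s itself nor the complete 28S ribosomal RNA was searched. The search therefore cannot tell whether Lars2 shares sequence with them, or whether its stretch is closer to them than to mt-Rnr2.

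In total RNA of WT MMC, cytosolic synthetases were the more abundant set. Levels are given as CPM (counts scaled to library size, with TMM factors over all 8 libraries) per kb of exon. The median cytosolic level was 15.7 CPM per kb in WT A and 28.6 in WT B, and the median mitochondrial level without Lars2 was 1.32 and 2.13. The ratio of these medians was 12.7 ± 1.09 (SD, n = 2) in WT MMC and 14.3 ± 1.06 in miR-379KO MMC. Each of the 16 pairings of a cytosolic enzyme with the mitochondrial enzyme of the same amino acid, Lars and Lars2 left out, had the cytosolic gene higher in all 4 total RNA libraries. The smallest ratio belonged to Iars and Iars2 in 3 libraries and to Farsa and Fars2 in WT B, at 2.38 to 3.23, and the largest to Nars and Nars2, which charge tRNAs with asparagine, at 82.3, 86.4, 87.2 and 84.9 in WT A, WT B, miR-379KO A and miR-379KO B.

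The most abundant cytosolic members per kb were Gars, Nars and Aars, the enzymes for glycine, asparagine and alanine. In WT total RNA their levels were 70.3 ± 27.8, 67.5 ± 15.4 and 47.6 ± 15.6 CPM per kb (SD, n = 2). The order of Gars and Nars is not resolved, since their values of 50.6 and 89.95 and of 56.7 and 78.4 overlapped. At the other end of the cytosolic set was Farsa, the catalytic subunit of the phenylalanine enzyme, at 10.5 ± 4.16 CPM per kb. The next mitochondrial member after Lars2 was Iars2, for isoleucine, at 8.61 ± 0.412 CPM per kb, followed by Rars2 at 3.61 ± 0.518 and Cars2 at 3.39 ± 1.32, whose values overlapped. Ears2, for glutamate, was lowest at 0.470 ± 0.182 CPM per kb, with 94 and 156 counts in WT A and B.

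Lars2 stood above all 35 other members in each library. In total RNA it held 53527 and 26673 counts in WT A and B, compared to 40448 and 40877 in miR-379KO A and B. Per kb this was 286 and 151 CPM in WT, compared to 181 and 237 CPM in miR-379KO MMC, so the WT libraries enclosed the miR-379KO libraries. Lars, the cytosolic leucyl-tRNA synthetase, held 2641 and 3555 counts in WT, compared to 3346 and 3183 in miR-379KO. The level of Lars2 per kb was thus 17.9 and 6.61 times that of Lars in WT A and B, and it was 10.7 and 11.3 times that of Lars in the miR-379KO libraries. Lars2 took 48.2% of all synthetase counts in WT A, with a 95% Wilson interval of 47.9 to 48.5%, but 23.1% (22.9 to 23.3%) in WT B. In miR-379KO the share was 31.5% (31.2 to 31.8%) for A and 33.3% (33.1 to 33.6%) for B. Such intervals cover counting error only.

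**Figure D1:**
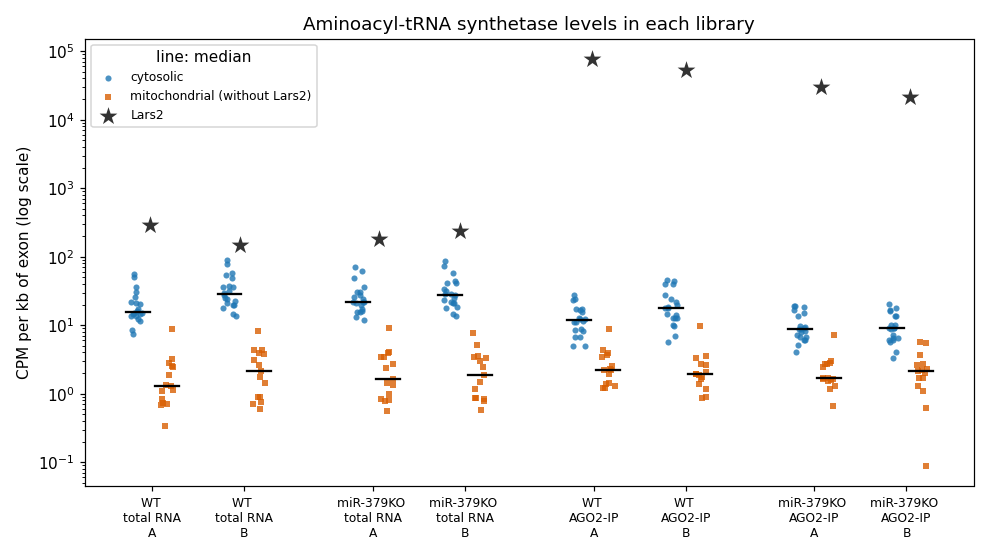
Level of each synthetase in each of the 8 libraries, in CPM per kb of exon on a log axis, with points for the 20 cytosolic genes, squares for the 15 mitochondrial genes without Lars2, a star for Lars2 and a line at each set's median. Lars2 lies at 151 to 286 CPM per kb in total RNA and at 21613 to 76369 in AGO2-IP, above every other member in each library.

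In AGO2-IP, Lars2 held 1451823 and 837374 counts in WT A and B, compared to 510784 and 351049 in miR-379KO A and B. No other member exceeded 523 counts in any AGO2-IP library. Lars2 therefore took 99.7% of the synthetase counts in WT A (95% Wilson interval 99.71 to 99.73%), 99.4% in WT B (99.39 to 99.42%), and in miR-379KO 99.4% (99.41 to 99.45%) in A, with 99.2% (99.21 to 99.27%) in B. Its level per kb was 6916 and 2905 times that of Lars in WT, compared to 3334 and 2179 times in miR-379KO. Against the highest other member of the same library, Lars2 was 2802 and 1159 times as high per kb in WT, compared to 1545 and 1056 times in miR-379KO.

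The change of Lars2 from total RNA to AGO2-IP was a rise of 8.21 ± 0.60 (SE) on the log2 scale in WT MMC, or 296-fold (edgeR quasi-likelihood test, adjusted p = 2.56e-08), and of 6.94 ± 0.56, or 123-fold, in miR-379KO MMC (adjusted p = 5.54e-08). It passed the test under all 17 alternatives in each genotype. As a share of unscaled gene counts, Lars2 took 0.312 and 0.153% in WT total RNA, compared to 8.49 and 8.74% in WT AGO2-IP. In miR-379KO it took 0.178 and 0.230% in total RNA, compared to 7.80 and 6.28% in AGO2-IP. The fold changes rest on TMM-scaled library sizes and are larger than the ratios of these shares. The median change of the 35 other members was -0.29 in WT and -1.02 in miR-379KO, which left Lars2 8.50 and 7.96 above its family on the log2 scale. The next member in each genotype was Ears2, and Lars2 exceeded it by 6.87 in WT and 5.15 in miR-379KO. Among all 17429 genes tested, 410 in WT and 3281 in miR-379KO had a larger fitted change. The 17429 genes passed the filter on low counts over all 8 libraries, whereas 12321 passed it in the total RNA libraries alone. They therefore include genes that passed only with the AGO2-IP libraries. Of 16088 protein-coding genes, Lars2 ranked 340th in WT and 2680th in miR-379KO. The assays differ in library preparation, as total RNA was poly(A)-selected and AGO2-IP RNA was ligated to adapters, and immunoprecipitation and preparation cannot be told apart.

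Lars2 moved with Rn45s from library to library. There were 3.37 and 3.39 Lars2 counts per 100 Rn45s counts in total RNA of WT A and B, compared to 3.17 and 3.27 in miR-379KO A and B, although the Lars2 counts of WT A and B differed as 53527 to 26673. In AGO2-IP the ratio was 10.5 and 11.7 in WT, compared to 10.8 and 8.52 in miR-379KO. The ratio was thus within a narrow range in total RNA and more spread in AGO2-IP. It was higher in all 4 AGO2-IP libraries than in all 4 total RNA libraries. Rn45s itself was higher in AGO2-IP than in total RNA by 6.51 ± 0.60 in WT (adjusted p = 5.03e-07, edgeR) and 5.35 ± 0.57 in miR-379KO (adjusted p = 8.54e-07), a smaller change than that of Lars2 in both genotypes. The part of ribosomal RNA in the Lars2 counts was not tested.

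**Figure D2:**
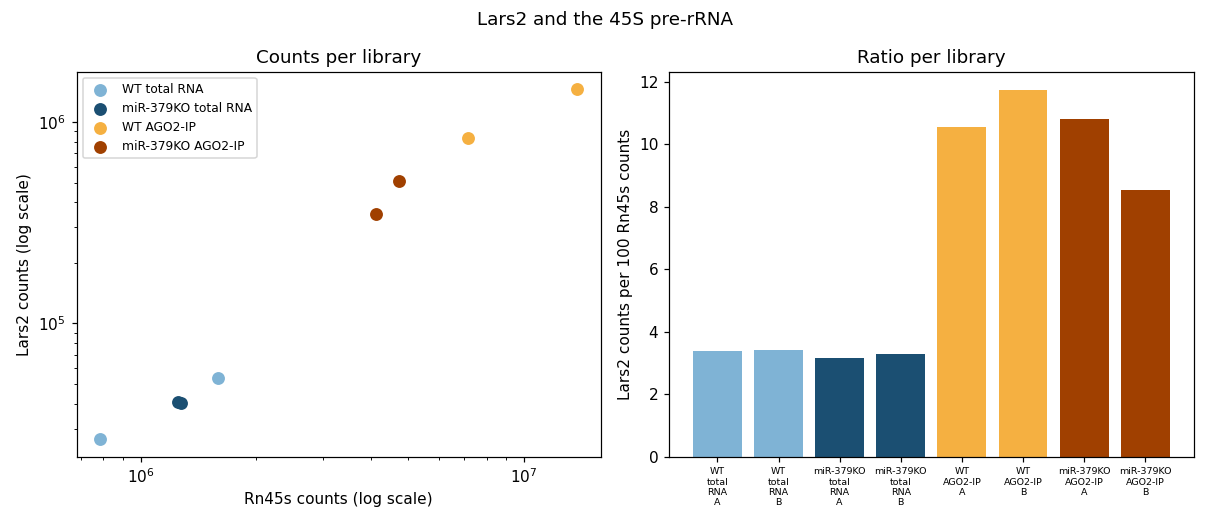
Lars2 against Rn45s counts in each library, both on log axes (left), and Lars2 counts per 100 Rn45s counts as bars from 0 (right). The 4 total RNA libraries lie at 3.17 to 3.39 and the 4 AGO2-IP libraries at 8.52 to 11.7 Lars2 counts per 100 Rn45s counts.

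Without Lars2, the cytosolic and mitochondrial sets differed in how much of their RNA was found in AGO2-IP. All 20 cytosolic genes had a lower fitted level in AGO2-IP than in total RNA in both genotypes, although under some alternatives Vars turned positive in miR-379KO (up to 0.09) and Vars, Cars, Mars, Aars and Iars did in WT (up to 0.52, 0.31, 0.28, 0.13 and 0.11). In WT MMC 5 of 20 passed the threshold for a lower level, an adjusted p under 0.05 with a 2-fold difference, as did 7.33% of all genes tested, and 0 of 20 passed for a higher level, as did 35.7% of all genes. In miR-379KO MMC 18 of 20 passed for a lower level, compared to 19.3% of all genes, and 0 of 20 for a higher one, compared to 41.6%. The shares of all genes in this comparison include genes that passed the filter on low counts only with the AGO2-IP libraries. They are thus not matched to the synthetases in total RNA level, and the part of this in the contrast was not tested. The lower count in miR-379KO ranged from 10, with a minimum mean of 50 counts, to 19 over the alternatives, with 12 under the offset for GC content and length. Of the 15 mitochondrial genes, 0 passed for a lower level in either genotype, and 1 in WT and 2 in miR-379KO passed for a higher level. With Lars2, 7 of the 36 members passed in either direction in WT and 21 in miR-379KO, compared to 43.1% and 61.0% of all genes. The study's cutoff passed 5 higher and 12 lower members in WT, compared to 41.4% and 15.0% of all genes (56.4% in either direction), and 3 higher and 20 lower members in miR-379KO, compared to 44.6% and 26.6% (71.2%).

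The median log2 change was -0.77 over the cytosolic set, 0.27 over the mitochondrial set and 0.49 over all genes tested in WT. The same medians were -1.49, -0.06 and 0.47 in miR-379KO. The median of all genes also covers genes that passed the filter on low counts only with the AGO2-IP libraries. The mitochondrial median was therefore above the cytosolic one by 1.04 in WT and by 1.42 in miR-379KO and both sets lay below the median of all genes. Over all 17 alternatives this difference stayed positive in both genotypes. With RLE scaling factors in place of TMM, the median of all genes moved from 0.47 to 0.66 in miR-379KO, and that of the mitochondrial set from -0.06 to 0.12. The direction of the mitochondrial set in miR-379KO thus depends on the scaling.

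The members with the lowest change in WT were Kars, Hars and Sars, the enzymes for lysine, histidine and serine. Kars, which is part of the multi-synthetase complex, held 1707 and 3448 counts in WT total RNA and 84 and 118 in WT AGO2-IP, and it was lower in AGO2-IP by a log2 change of -1.27 ± 0.39 (adjusted p = 0.0167, edgeR). In miR-379KO MMC Kars held 3286 and 3814 counts in total RNA and 56 and 35 in AGO2-IP, and the change was -2.76 ± 0.42, or 6.78-fold lower (adjusted p = 8.79e-05). Kars was thus the lowest member in both genotypes. Hars and Sars fell by 1.16 ± 0.30 and 1.12 ± 0.37 on the log2 scale in WT. In miR-379KO the other two lowest were Sars, at -2.07 ± 0.39, and Nars, at -2.003 ± 0.31 (adjusted p = 2.67e-04 and 2.17e-05). In WT all 5 lower calls (Hars, Kars, Sars, Wars and Yars) were lost without WT total RNA B and without WT AGO2-IP A, whereas 15 members passed as lower without WT AGO2-IP B. Kars gives both the cytosolic and the mitochondrial enzyme, and 1 count per gene cannot separate these forms.

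The members with the highest change after Lars2 were mitochondrial. Ears2 held 94 and 156 counts in WT total RNA and 34 and 27 in WT AGO2-IP, which after scaling was a rise of 1.34 ± 0.35 (adjusted p = 0.00418, edgeR). In miR-379KO it held 184 and 148 counts in total RNA and 43 and 54 in AGO2-IP, a rise of 1.79 ± 0.34 (adjusted p = 1.39e-04). Nars2, the mitochondrial asparagine enzyme, rose by 1.51 ± 0.34 in miR-379KO (adjusted p = 7.95e-04) and was 1.84-fold higher in WT, under the 2-fold limit. Wars2, for tryptophan, stood at 0.94 ± 0.38 in WT and did not reach the 2-fold limit either. The call for Ears2 in WT was lost without WT total RNA A and without WT AGO2-IP A.

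**Figure D3:**
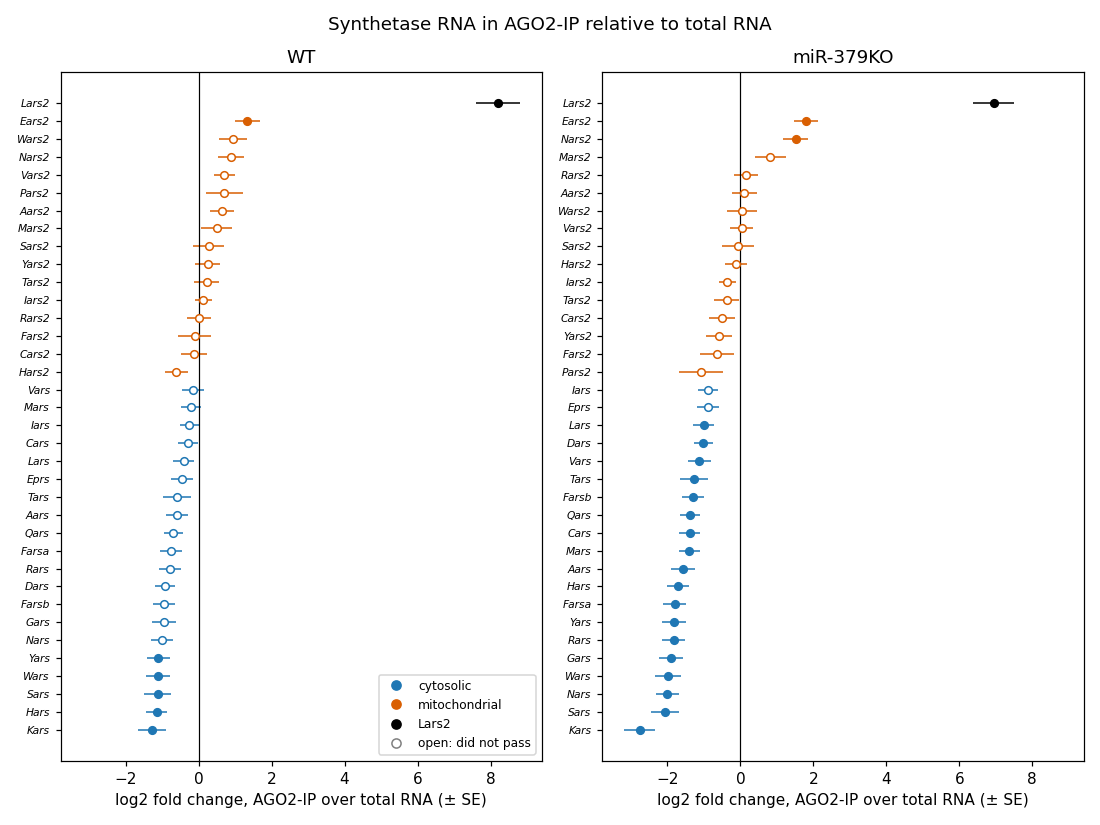
Log2 change from total RNA to AGO2-IP for the 36 synthetases in WT (left) and miR-379KO MMC (right), with bars of 1 SE, and filled points for genes past the adjusted threshold and the 2-fold limit. Lars2 lies at 8.21 and 6.94, while all 20 cytosolic genes lie below 0 in both panels, of which 5 in WT and 1 in miR-379KO turned positive under some alternatives.

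Level in total RNA moved with this difference between the sets. Over 17373 genes, Spearman's rho between the total RNA level and the change to AGO2-IP was -0.81 in WT and -0.88 in miR-379KO, and over the 35 synthetases without Lars2 it was -0.73 and -0.75. These are correlations across genes that share libraries, and both axes use the total RNA values. The 17373 genes include those that passed the filter on low counts only with the AGO2-IP libraries. Within the 20 cytosolic genes, at 21.4 (Farsa) to 187 (Aars) CPM in total RNA, rho was 0.11 in WT and -0.08 in miR-379KO. Within the 15 mitochondrial genes, at 2.32 (Mars2) to 30.2 (Iars2) CPM, it was -0.70 and -0.37. Iars2 was the 1 mitochondrial gene whose level lay among those of the cytosolic set, next to Farsa, Farsb and Hars. Its change was 0.12 ± 0.23 in WT (-0.26 to 0.57 over the alternatives), compared to -0.77 ± 0.30, -0.95 ± 0.29 and -1.16 ± 0.30 for those 3 genes. In miR-379KO it was -0.36 ± 0.24, compared to -1.80 ± 0.32, -1.30 ± 0.30 and -1.71 ± 0.31. The difference between Iars2 and these genes was not tested, and neither was the part of level in the difference between the sets.

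**Figure D4:**
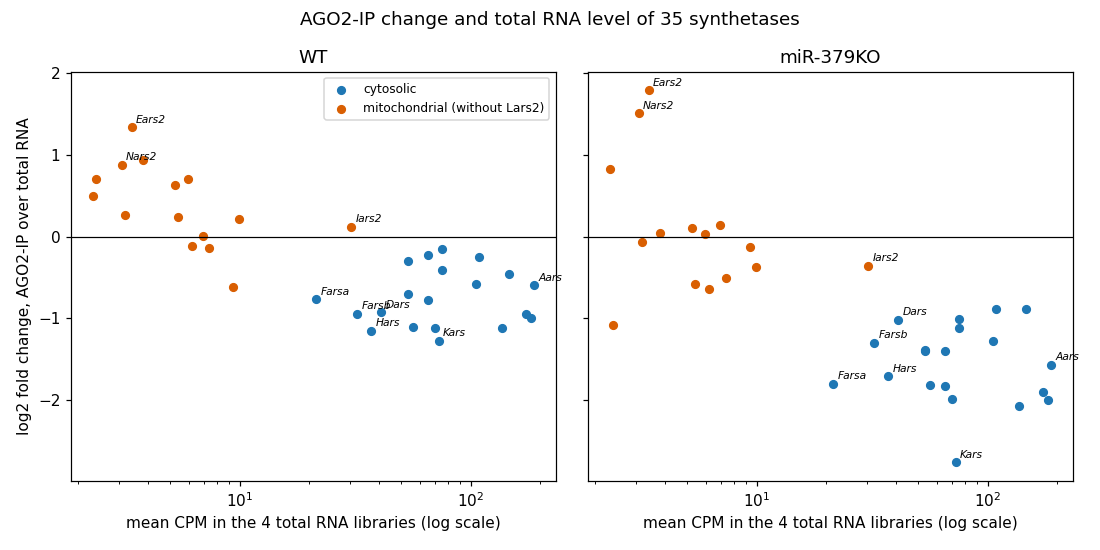
Log2 change from total RNA to AGO2-IP against the mean level in the 4 total RNA libraries (CPM, log axis) for the 35 synthetases other than Lars2, in WT (left) and miR-379KO MMC (right). Iars2, at 30.2 CPM, lies above the cytosolic genes of similar level in both panels.

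The mitochondrial genes without Lars2 made up more of the family's counts in AGO2-IP. Their share of the counts of the 35 members was 6.53% (95% Wilson interval 6.33 to 6.73%) and 5.13% (4.99 to 5.28%) in total RNA of WT A and B, compared to 6.23% (6.07 to 6.39%) and 5.08% (4.94 to 5.24%) in miR-379KO A and B. In AGO2-IP it was 13.5% (12.4 to 14.5%) and 8.43% (7.69 to 9.23%) in WT, compared to 14.4% (13.2 to 15.7%) and 14.7% (13.4 to 16.1%) in miR-379KO. All 4 AGO2-IP values were above all 4 total RNA values, and WT AGO2-IP B was the lowest of them. The cytosolic gene stayed the higher one per kb in all 16 pairings in each AGO2-IP library, with a median ratio of 5.82 and 8.20 in WT, compared to 4.88 and 5.30 in miR-379KO, whereas it was 12.4 to 17.6 in total RNA.

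Loss of miR-379 was not accompanied by a detectable change of synthetase RNA in total RNA. None of the 36 genes passed an adjusted p under 0.05, and none of all 12321 genes tested did (0%, edgeR), nor by DESeq2. None of the 36 genes had an unadjusted p under 0.05, and with the cutoff that the study used (an unadjusted p under 0.05 and over 1.5-fold), 0 of 36 passed compared to 0.682% of all genes (0.333% higher and 0.349% lower). Both miR-379KO libraries lay above both WT libraries for Hars and Pars2 and below them for none of the 36, compared to 11.5% and 6.60% of all genes. The median log2 change was 0.10 over the cytosolic and 0.08 over the mitochondrial set, compared to -0.01 over all genes. The smallest p-values belonged to Cars2 (0.40 ± 0.30), Aars2 (-0.30 ± 0.25) and Hars (0.26 ± 0.22), none of which passed (adjusted p = 0.9997 for each, edgeR). The log2 change was -0.08 ± 0.24 for Lars and -0.16 ± 0.43 for Lars2, which turned to 0.51 without WT A and to 0.07 without miR-379KO A.

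Total RNA of WT A and WT B differed in the summed level of the cytosolic set. The 20 cytosolic genes summed to 1276 and 2112 CPM in WT A and B, compared to 1639 and 1994 CPM in miR-379KO A and B. The 5 cytosolic elongation factors, which bring charged tRNA to the ribosome and move it on, summed to 3855 and 6782 CPM in WT, compared to 5816 and 7343 CPM in miR-379KO. The 28 amino acid response genes, which include Asns, Phgdh and other ATF4 targets, summed to 1206 and 1875 CPM in WT, compared to 1436 and 1823 CPM in miR-379KO. In each of these sets WT A was the lowest library, and Lars2 and Rn45s were highest in it.

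In AGO2-IP, synthetase RNA was lower in miR-379KO than in WT MMC for 8 of 35 genes tested and higher for 1, compared to 9.52% and 21.4% of all 13505 genes (30.9% in either direction). Pars2, with 8 and 1 counts in miR-379KO, did not pass the filter on low counts. The lower genes were Lars2 and 7 of the 20 cytosolic genes, namely Cars, Gars, Kars, Mars, Nars, Rars and Vars, of which Kars, Mars and Rars belong to the multi-synthetase complex. The higher gene was Ears2, 1 of 14 mitochondrial genes tested. The SE ran from 0.23 (Iars2) to 0.44 (Mars2) over these 14 genes and from 0.22 (Mars) to 0.32 (Tars) over the cytosolic set. A change of a given size was thus harder to call for most mitochondrial genes. The median log2 change was -0.62 over the cytosolic set, -0.12 over the mitochondrial set without Lars2 and -0.01 over all genes tested. Both miR-379KO libraries lay below both WT libraries for 17 of 20 cytosolic genes and 5 of 14 mitochondrial genes, compared to 40.3% of all genes, and above them for 0 of 20 and 3 of 14, compared to 31.7%.

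These calls depended on single libraries, with 0 genes past the threshold without WT AGO2-IP B, 1 without miR-379KO AGO2-IP B, 5 without miR-379KO AGO2-IP A and 13 without WT AGO2-IP A. None passed in a fit of all 8 libraries or with a minimum mean of 50 counts, where 21 of the 36 genes remained. DESeq2 called 1 gene, Lars2, whereas the study's cutoff gave 2 higher and 12 lower genes, compared to 26.1% and 13.3% of all genes (39.4% in either direction). Replicate depth and make-up moved with genotype in AGO2-IP, as WT libraries held 17095021 and 9586299 gene counts, compared to 6545652 and 5587611 in miR-379KO. The entry for reads outside genes held 23.4 and 26.6% of all listed counts in WT, compared to 33.5 and 35.9% in miR-379KO. The part of these differences in the result was not tested.

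Lars2 was lower in miR-379KO than in WT AGO2-IP, with levels of 76369 and 52890 CPM per kb in WT, compared to 29675 and 21613 in miR-379KO, which did not overlap. The log2 change was -1.19 ± 0.44, or 2.28-fold lower (adjusted p = 0.0437, edgeR), and the adjusted p ranged from 0.00121 to 0.569 over 13 alternatives, of which 9 lost the call, including the omission of any 1 library. Lars2 lay 0.75 below the median of the 34 other members tested. As a share of unscaled gene counts, Lars2 took 8.49 and 8.74% in WT, compared to 7.80 and 6.28% in miR-379KO. This is a smaller difference than that of the TMM-scaled levels. Rn45s changed by -1.01 ± 0.49 in the same libraries and did not pass (adjusted p = 0.120). Lars stood at 43.2 and 71.2 CPM in WT, compared to 34.8 and 38.8 in miR-379KO, a log2 change of -0.48 ± 0.24 that did not pass (adjusted p = 0.135).

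Of the cytosolic genes, Cars, the cysteine enzyme, had the smallest p. It held 153 and 169 counts in WT, compared to 83 and 78 in miR-379KO AGO2-IP, and fell by 0.81 ± 0.23 on the log2 scale (adjusted p = 0.0110, edgeR). Kars fell by 0.97 ± 0.28 (adjusted p = 0.0131), from 19.6 and 33.1 to 14.4 and 9.56 CPM. Mars, Rars, Nars, Gars and Vars, the enzymes for methionine, arginine, asparagine, glycine and valine, fell by 0.69, 0.77, 0.76, 0.72 and 0.68, each with an SE of 0.22 to 0.26 and with adjusted p = 0.0211, 0.0278, 0.0293, 0.0314 and 0.0375. In the other direction, Ears2 held 34 and 27 counts in WT, compared to 43 and 54 in the shallower miR-379KO libraries, and rose by 0.88 ± 0.30 (adjusted p = 0.0271). Nars2, with 21 and 22 counts in WT, compared to 40 and 28 in miR-379KO, stood at 0.85 ± 0.34 and did not pass (adjusted p = 0.0551).

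**Figure D5:**
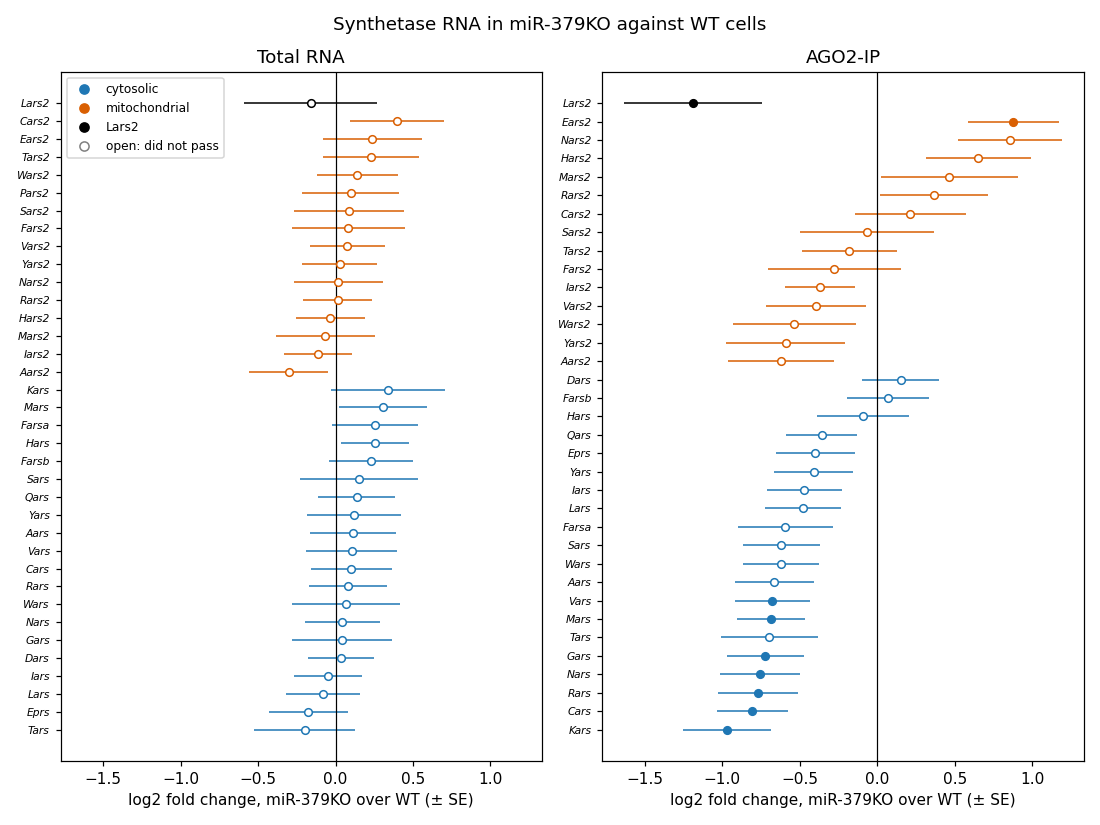
Log2 change of miR-379KO over WT MMC for the synthetases in total RNA (left, 36 genes) and AGO2-IP (right, 35 genes), with bars of 1 SE and filled points for genes past an adjusted p of 0.05. No gene is filled in total RNA, and in AGO2-IP the filled points are Lars2, 7 cytosolic genes below 0 and Ears2 above 0.

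An interaction term over all 8 libraries tested whether AGO2-IP changed with genotype beyond total RNA. None of the 36 genes passed, as none of all 17429 genes did (0%, edgeR), and 9 of 36 synthetases, all lower, passed the study's cutoff compared to 15.7% of all genes (4.79% higher and 10.9% lower). The smallest p-values belonged to Mars (-1.18 ± 0.40), Cars (-1.10 ± 0.39) and Kars (-1.49 ± 0.57), at adjusted p = 0.242, 0.256 and 0.269. The median was -0.91 over the cytosolic set, -0.48 over the mitochondrial set without Lars2 and 0.01 over all genes, the last of which moved to 0.28 with RLE factors. Lars2 stood at -1.27 ± 0.62 (adjusted p = 0.330) and Lars at -0.60 ± 0.40 (adjusted p = 0.473). DESeq2 called 17 genes higher and 97 lower of all genes, and 0 synthetases, of which 11 cytosolic and 15 mitochondrial genes were given no adjusted p. Without WT total RNA B, 12 members passed in edgeR.

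Other genes of tRNA charging and translation were taken from lists. The 3 scaffold proteins of the multi-synthetase complex, Aimp1, Aimp2 and Eef1e1, were lower in AGO2-IP than in total RNA, with log2 changes of -1.33, -1.46 and -1.51 in WT, compared to -1.77, -2.29 and -2.42 in miR-379KO, and all 3 passed in both genotypes. The 8 enzymes of the complex had a median of -0.58 in WT and -1.20 in miR-379KO, with 1 and 6 past the threshold, and the 12 other cytosolic enzymes a median of -0.95 and -1.75, with 4 and 12 past it. All 5 cytosolic elongation factors were lower in both genotypes, with medians of -1.27 and -2.07. Of all genes, 7.33% in WT and 19.3% in miR-379KO passed as lower. In WT the scaffold genes dropped to 1 call and the elongation factors to 0 without WT total RNA B, and to 1 and 2 under an offset for GC and exon length, and the complex and other cytosolic enzymes ranged from 0 to 6 and from 0 to 9 calls over the alternatives. In miR-379KO the complex enzymes ranged from 2 to 7 and the other cytosolic enzymes from 8 to 12. In miR-379KO against WT AGO2-IP, 0 of 3 scaffold genes and 1 of 5 elongation factors passed, Eef1b2 with -0.65 ± 0.23 (adjusted p = 0.0323, edgeR).

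The median change of the 22 mitochondrial tRNA and translation factors from total RNA to AGO2-IP was -0.04 in WT, with 1 higher and 3 lower, beside 35.7% and 7.33% of all genes. In miR-379KO it was -0.33, with 1 higher and 6 lower, beside 41.6% and 19.3%. In miR-379KO against WT AGO2-IP the median was -0.05 and 1 of 22 passed, Tufm, the mitochondrial elongation factor that delivers charged tRNA, with -0.96 ± 0.31 (adjusted p = 0.0230, edgeR).

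Of 27 amino acid response genes tested in miR-379KO against WT AGO2-IP, 13 were lower and 0 higher, beside 9.52% and 21.4% of all genes, with a median of -0.63. The count of lower genes ranged from 1 to 18 over the alternatives, with 4 by DESeq2, without WT AGO2-IP B or without miR-379KO AGO2-IP B, 1 with a minimum mean of 50 counts, where 18 genes were tested, and 3 under an offset for GC and exon length. The smallest p-values were those of Shmt2 (-1.26 ± 0.25), an enzyme of mitochondrial serine metabolism, Nupr1 (-1.26 ± 0.26), a stress-induced nuclear protein, and the amino acid transporters Slc7a5 (-1.08 ± 0.26) and Slc38a2 (-0.98 ± 0.25), with adjusted p = 0.00113, 0.00139, 0.00385 and 0.00558 (edgeR). In total RNA 0 of 28 passed, with a median of -0.08.

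The motif TGATGNAA was searched on both strands because C/EBP and ATF4 factors are known to bind sites of this kind. Promoter windows ran from 250 bases before to 50 after the start, and a gene counted if any of its windows matched. The motif was found in 5 of 13 cytosolic synthetases with a RefSeq promoter entry and 0 of 14 mitochondrial ones. This compares to 4.51% of 27025 genes with such an entry. The 6 matches are shown with the motif, or its reverse complement, in capitals, each on the strand of its gene in GRCm38.p6.
Aars, chr8:111033724-111033743: tgagcaTTGCATCAgccgag
Aars, chr8:111033845-111033864: gtcactTTTCATCAgagcgc
Gars, chr6:55037965-55037984: gcgctaTTTCATCAtgcacc
Iars, chr13:49682131-49682150: tcagtaTTGCATCAcctcca
Tars, chr15:11399660-11399679: gtcccgTTGCATCAgctggt
Yars, chr4:129189900-129189919: ctcagcTGATGCAAcccgac
A match is only a match of letters. Of these 5 genes, Gars alone passed in miR-379KO against WT AGO2-IP.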

How the data were processed

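Total RNA and AGO2-IP RNA of WT and miR-379KO MMC were analysed as 8 libraries in 4 groups, grouped by sample title, with no statement in the labels that replicates A and B were separate cultures. The study's text calls them independent samples, otherwise p-values measure only spread between samples. The authors deposited whole-read counts per gene without normalization. Per the study's methods, a stranded mRNA kit was used for total RNA, whereas for AGO2-IP adapters were ligated to RNA from sonicated lysates of UV cross-linked cells. Reads were aligned to mm10 with TopHat and counted with strand by htseq-count (the submitters' notes name Bowtie2 2.1.0.1 and HTSeq 0.6.0). Reads from near-identical copies were thus left out as not unique, in an entry that held 13.7 to 54.4% of all listed counts. Such percentages are shares of listed counts and were not checked to be shares of reads. The rows for reads outside genes and the like stayed out of library sizes.

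Counts were fitted in edgeR 4.0.16 (R 4.3.3) after filterByExpr and TMM, by a robust quasi-likelihood F test across all genes. Genotypes were compared on 4 libraries of an assay, other contrasts on all 8. Calls used a Benjamini-Hochberg adjusted p under 0.05, plus 2-fold for AGO2-IP against total RNA. SE is the log2 change divided by the square root of F. Levels are CPM over TMM-scaled library sizes, so they are not shares of a library's counts. Scripts were tested on simulated data. Annotation was RefSeq GRCm38.p6 (98.7% of entries matched). Alignments to ribosomal RNA used blastn 2.17.0 with a word size of 7. The genome search for copies of the Lars2 exon used its megablast task with a longer word. Rn45s itself and the complete 28S ribosomal RNA were not used as targets.

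Statistics are given for Lars2, Lars, members past the threshold (up to 8 in a genotype comparison, otherwise the 3 smallest p), the 3 highest and 3 lowest changes to AGO2-IP, the 3 highest levels of each set, and up to 4 genes of a partner list. Alternatives were DESeq2 1.42.0, RLE factors, library sizes without Rn45s and Lars2, other filters, replicate blocks, a GC and length offset (lowess span 0.3), pooled fits and omission of each library. Members, lists and tests were chosen with earlier results of these data known.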

Additional observations from a re-analysis of the deposited data

How the results depend on the processing

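The rise of Lars2 from total RNA to AGO2-IP passed under all 17 alternatives in each genotype, at 7.65 to 8.85 on the log2 scale in WT and 6.70 to 7.77 in miR-379KO. Its lower level in miR-379KO than in WT AGO2-IP lost the call without a filter on low counts (-1.39), with a minimum mean of 50 counts (-0.83), with an offset for GC content and length (-1.01, or -1.001 with the replicate block as well) and with all 8 libraries in one fit (-1.33), and ranged from -1.49 to -0.95 when 1 library was left out. In total RNA its change ranged from -0.62 to 0.51 in the same way, turning positive without WT A (0.51) and without miR-379KO A (0.07). The number of synthetases past the threshold in AGO2-IP between genotypes, 9 of 35, was 1 by DESeq2, 0 with the minimum mean of 50 counts, 0 with all 8 libraries, 4 with the offset, 4 with offset and block, 14 by the study's cutoff and 0 to 13 with 1 library left out. In the interaction it was 5 with a block for each culture (Cars, Kars, Mars, Rars and Vars, all lower, adjusted p = 0.00317 to 0.0466, edgeR), 9 by the study's cutoff and 0 to 12 with 1 library left out, and from WT total RNA to AGO2-IP, where 7 passed, it was 17 by the study's cutoff and 3 to 17. The mitochondrial minus cytosolic median ranged with 1 library left out from 0.13 to 1.01 in AGO2-IP between genotypes, from 0.12 to 0.84 in the interaction and from 0.80 to 1.61 from WT total RNA to AGO2-IP, and in miR-379KO it was 1.66 with the offset and 1.61 with offset and block. Lars2 levels were also computed with Rn45s and Lars2 left out of the library size and without TMM factors. The mean was then 145991 in place of 64630 CPM per kb in WT AGO2-IP, and 570 in place of 218 in WT total RNA. The cause of these shifts was not tested. Same-letter libraries of WT and miR-379KO did not deviate together (correlation -0.03 in total RNA and 0.04 in AGO2-IP), so the letters were not taken as pairs, and within a genotype same-letter total RNA and AGO2-IP libraries correlated at 0.23 and 0.19. With the replicate block the AGO2-IP comparison gave 7 calls, Lars2 included. With 2 libraries in each group and 2688 to 5029 counts on the other 35 synthetases in an AGO2-IP library, the size of change that could be called was limited.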
